A study of Mus musculus with 2 samples.

Results

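The genes described here are 7 that encode secreted proteins of the alveolus and the conducting airway: the surfactant protein genes Sftpa1, Sftpb, Sftpc and Sftpd, and the secretoglobin genes Scgb1a1, Scgb3a1 and Scgb3a2. They were chosen by name, and every probe set annotated to 1 of these symbols alone was taken, which gave 9 of 22690 probe sets and 7 of 12393 named genes. All 7 genes were measured, in the sense that 1 of their probe sets or more rose above a floor on low signals on at least 1 array. The RNA came from teratomas, the growths of many intermixed tissues that arise when pluripotent cells are placed in a host. The first group was tumours of embryonic stem cells of the mouse strain C57BL/6 (B6), called the ES tumours. The other was tumours of EiPS cells, given in the labels as B6 in strain and as the induced pluripotent line 1E12, and described by the submitters as regressing (the EiPS tumours). In both groups the cells had been placed under the skin of male B6 mice, which carried no other named treatment or allele, and the tumours were taken at week 6. Each group is 1 Affymetrix array holding the mixed RNA of 2 tumours, so no value below has a replicate check, none was tested, and the differences are between these pooled RNAs rather than between the cell lines in general.

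Surfactant is the film of lipid and protein that keeps alveoli from collapsing, and alveolar type 2 cells make and secrete it. SP-B and SP-C, the products of Sftpb and Sftpc, are small hydrophobic proteins that spread the lipid. SP-A and SP-D, from Sftpa1 and Sftpd, are collectins, soluble lectins that bind sugars on microbes, and SP-D is also made by mucosal epithelia outside the lung. Secretoglobins are small secreted proteins. Scgb1a1 is the classical product of club cells of the airway, and Scgb3a1 and Scgb3a2 are airway members of the family. In the lung, the homeodomain factor NKX2-1 acts at the promoters of surfactant protein genes and of several secretoglobin genes, together with FOXA factors.

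The sequences just upstream of the start of 3 of the genes are shown, with the short motif that NKX2-1 binds marked in them. The windows were not chosen by motif or by signal. They belong to genes whose signals differed between the pools and to 1 whose signal hardly did. They are the 250 bases before the annotated start in RefSeq (GRCm38.p6, plus strand in all 3), for Sftpa1 at chr14:41131538-41131787, for Sftpb at chr6:72304360-72304609 and for Scgb3a1 at chr11:49663345-49663594. Of the genes described here, upstream sequence was taken for these 3 only. None was examined for Sftpc, Sftpd, Scgb1a1 or Scgb3a2, so the 3 windows do not stand for the whole set. Capitals mark TCAAG on either strand (CTTGA on the opposite one), taken as the NKX2-1 core, and TATAAA on the plus strand.
Sftpa1: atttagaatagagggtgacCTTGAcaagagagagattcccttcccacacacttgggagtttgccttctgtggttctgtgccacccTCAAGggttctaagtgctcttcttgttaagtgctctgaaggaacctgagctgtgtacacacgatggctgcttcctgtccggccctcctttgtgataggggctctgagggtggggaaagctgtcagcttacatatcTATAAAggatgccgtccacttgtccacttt
Sftpb: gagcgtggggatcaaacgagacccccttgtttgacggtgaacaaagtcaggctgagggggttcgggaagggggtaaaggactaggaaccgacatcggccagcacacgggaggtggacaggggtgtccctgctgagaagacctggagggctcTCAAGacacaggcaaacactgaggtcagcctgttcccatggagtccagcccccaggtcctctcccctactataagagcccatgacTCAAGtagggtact
Scgb3a1: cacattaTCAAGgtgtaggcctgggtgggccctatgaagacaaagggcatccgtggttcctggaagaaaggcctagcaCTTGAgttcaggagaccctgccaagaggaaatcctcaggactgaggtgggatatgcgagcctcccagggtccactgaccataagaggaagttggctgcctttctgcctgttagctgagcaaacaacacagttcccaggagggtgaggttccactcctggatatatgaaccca
Each of the 3 windows held 2 matches to TCAAG, those of Sftpa1 and Sftpb, whose signals were higher in the EiPS tumours, and that of Scgb3a1, whose signals were close. The motif is short, and 35.9% of 32851 upstream windows of the same length held it. The matches began 99 and 14 bases before the start of Sftpb, 231 and 165 bases before that of Sftpa1, and 243 and 172 bases before that of Scgb3a1. TATAAA lay 30 bases before the start of Sftpa1 and in neither of the other windows, against 7.59% of all windows. TGTTTAC, a FOXA motif searched on both strands, was in none of the 3 and in 3.17% of all windows. A match is a string of letters, not a measured binding site.

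The comparison asks how these lung and airway genes differed between tumours of ES cells and regressing tumours of EiPS cells grown in hosts of their own strain. All 4 surfactant protein genes had signals at least 2-fold higher in the EiPS tumours, whereas the secretoglobins were lower or nearly equal. Sftpc was 6.57-fold, Sftpb 3.18-fold, Sftpa1 at least 3.06-fold and Sftpd 2.28-fold higher, and Scgb3a2 was 5.48-fold and Scgb1a1 1.72-fold lower. Over 10953 measured genes, 5.79% had signals higher by 2-fold or more in the EiPS tumours and 3.05% lower by that much, against 4 and 1 of the 7 genes here. The 7 genes were chosen with earlier results of these data known, so these shares are a description and not a test. The median log2 difference, EiPS tumours less ES tumours, was 1.64 over the 4 surfactant genes and -0.78 over the 3 secretoglobins, and 0.07 over all measured genes. By the brightest probe set of each, the surfactant genes spanned 1.19 to 2.71 and the secretoglobins -2.45 to 0.07, and the median over all 7 was 1.19. The other Sftpa1 probe set gave a bound of only 0.26. Scgb1b27, a secretoglobin outside the 7, differed by 0.50, so the families are not separate beyond these values. These are bulk tumours, in which fewer cells of a type and less RNA per cell cannot be told apart.

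**Figure D1:**
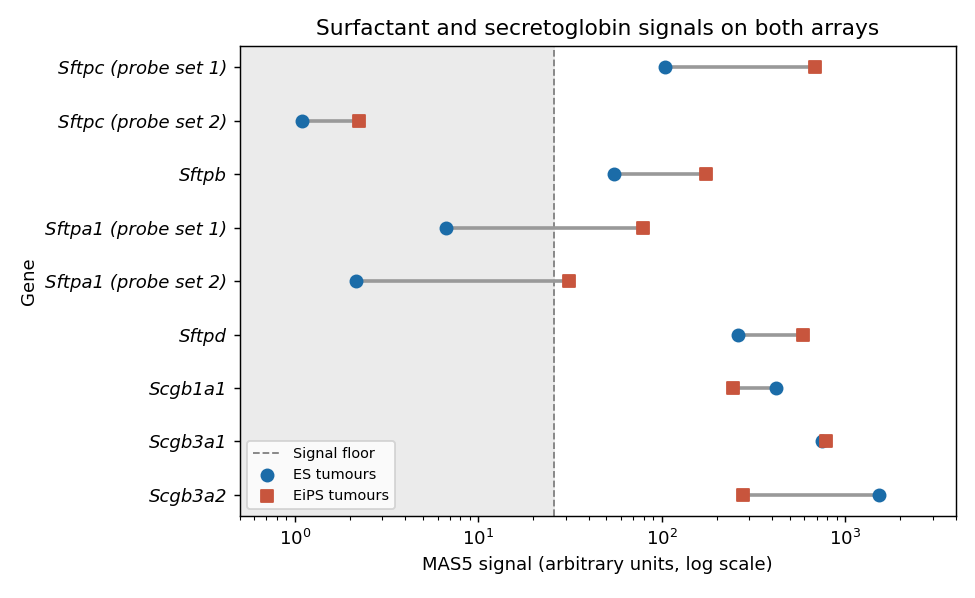
MAS5 signal on a log axis for each of the 9 probe sets, with circles for the ES tumours and squares for the EiPS tumours, 1 array each and hence no error bars; the shaded range is under the signal floor of 26.0. The squares lie to the right of the circles for every surfactant probe set, and to the left for Scgb1a1 and Scgb3a2. For the fainter Sftpc probe set both signals are under the floor, so their order there carries no weight.

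Sftpc, whose product is made in the lung by alveolar type 2 cells, read 104 in the ES tumours and 682 in the EiPS tumours on probe set 1418639_at. Its log2 difference of 2.71 was the 32nd highest of all measured genes. A second probe set, 1438290_x_at, read 1.10 and 2.25, under the floor on both arrays, and so gave no fold. The Sftpc value therefore rests on 1 probe set. Of the 10 alternative ways of processing tried, all 10 left it at least 2-fold higher, with log2 differences of 2.15 to 2.71.

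Sftpb, needed for the packing of surfactant into lamellar bodies, had signals of 55.2 in the ES tumours and 175 in the EiPS tumours, a log2 difference of 1.67. Both signals were above the floor, but the lower was little more than the level of the brighter silent receptor probe sets (49.4 at their 98th percentile). With a floor of 100, Sftpb was measured in the EiPS tumours only and its difference became a bound of 0.81. That was the 1 alternative of 10 under which Sftpb was not at least 2-fold higher.

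Sftpa1, which encodes the collectin SP-A, was measured in the EiPS tumours alone. Its brighter probe set, 1422334_a_at, read 6.67 in the ES tumours and 79.5 in the EiPS tumours, and its other, 1429626_at, read 2.15 and 31.1. Both probe sets were under the floor in the ES tumours and over it in the EiPS tumours, so the same order of the pools was seen on each, and each gives only a bound, of at least 3.06-fold and at least 1.20-fold. The weaker bound comes from an EiPS signal just over the floor. The size of the Sftpa1 difference depended on the choice of probe set and floor more than that of any other of the 7 genes, from 0.26 without probe sets shared between transcripts to 3.57 with no floor at all.

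Sftpd, which encodes the collectin SP-D, had signals of 259 in the ES tumours and 591 in the EiPS tumours. Its log2 difference of 1.19 was the smallest of the 4 surfactant genes, and it stayed between 1.02 and 1.19 under all 10 alternatives. In the order of genes in RefSeq, Sftpa1 and Sftpd lie on the same chromosome, 14, with 1 protein-coding gene between them, the mannose-binding lectin gene Mbl1, and a pseudogene. Mbl1 read 10.1 and 13.6, under the floor in each, so no fold is given for the gene between them.

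Scgb3a2 had the largest difference of the 3 secretoglobins, with signals of 1524 in the ES tumours and 278 in the EiPS tumours. Its log2 difference of -2.45 was the 9th lowest of all measured genes, and the 9 alternatives that could be run on it gave -2.58 to -2.21. Between Sftpc and Scgb3a2, both genes of the lung epithelium, the pools were thus ordered in opposite ways, each by more than 5-fold and with all 4 signals well over the floor.

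Scgb1a1, the club cell secretory protein gene, had signals of 423 in the ES tumours and 246 in the EiPS tumours, a log2 difference of -0.78 that was short of 2-fold under every alternative run on it (-0.91 to -0.65). Scgb3a1 had signals of 745 and 783, 1.05-fold higher in the EiPS tumours, which is close to the middle of all measured genes. Its sign depended on the scaling, with a log2 difference of 0.07 as deposited and -0.05 after setting the medians of the arrays equal. With no replicate, measurement noise can be gauged only from probe sets that read the same gene, whose log2 differences had an SD of 0.40 over 3800 genes, and of 0.54 where signals were under 100. The difference of Scgb3a1 was smaller than this SD and those of the other 6 genes were larger, but the gauge leaves out variation between tumours, arrays and labelling. Scgb1a1 and Scgb3a2 each have only 1 probe set, of a kind that reads several transcripts of a gene.

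**Figure D2:**
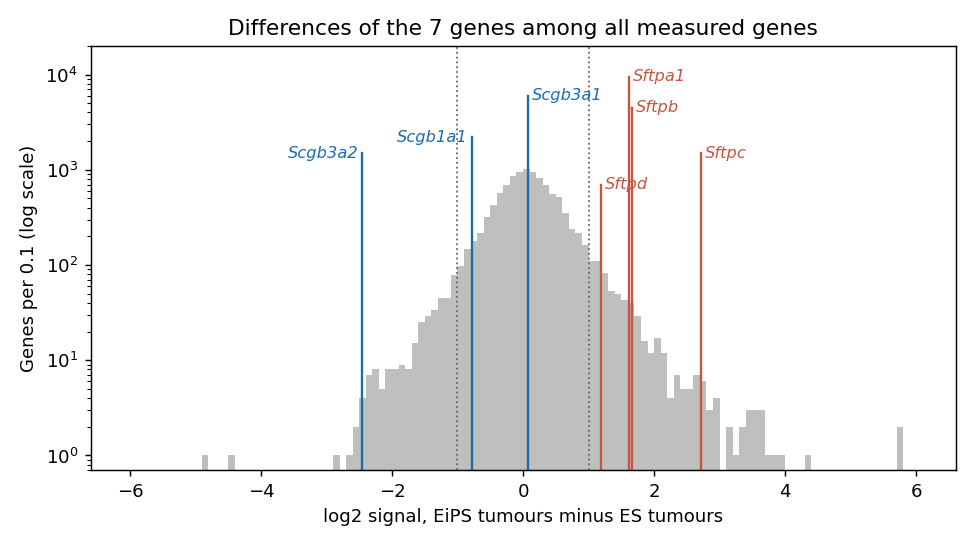
Histogram of log2 differences (EiPS tumours minus ES tumours) over 10953 measured genes, with the number of genes per 0.1 on a log axis; lines mark the 4 surfactant genes and the 3 secretoglobins, line height has no meaning, and dotted lines are at 2-fold. Scgb3a2 and Sftpc lie in the opposite tails at -2.45 and 2.71, and Scgb3a1 lies at 0.07.

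The genes with the pair of signals closest to that of Sftpc, by Euclidean distance of the 2 log2 signals over all measured genes, were 2210407C18Rik (96.7 and 726, a distance of 0.14), Reg1, a secreted protein of the pancreas and gut (114 and 502, 0.46), and Angpt2, a vessel-destabilising growth factor (109 and 496, 0.46). Closest to Scgb3a2 were the muscle regulator Myf6 (1565 and 279, 0.04), Sostdc1, a secreted BMP and Wnt antagonist (1280 and 279, 0.25), and the sarcomere protein gene Myom1 (1696 and 361, 0.41). Likeness over 2 arrays says only that the signals were similar.

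Other genes of alveolar cells went both ways. Of 10 other alveolar type 2 genes measured, 8 were higher in the EiPS tumours, none by 2-fold, with a median log2 difference of 0.48. Of all 10953 measured genes, 6159 were higher. The largest of the increases in the list were those of Lyz2 (0.95) and Lyz1 (0.78, with other probe sets down to -0.04), named after their values were seen. Napsa, the aspartic protease that processes pro-SP-B and pro-SP-C, had low signals of 44.4 and 62.2, and the lamellar body lipid transporter Abca3 read 782 and 673, with 3 probe sets from -0.47 to 0.63. Lamp3, a lamellar body membrane protein, had no probe set of its own. Etv5, a transcription factor that maintains type 2 cells, was 2.48-fold lower (156 and 62.8), opposite to the 4 surfactant genes. Of 12 measured genes of surfactant lipid synthesis and turnover, 6 were higher and 6 lower, none by 2-fold by its brightest probe set (median -0.02). The phosphatidylcholine enzymes Pcyt1a and Chpt1 were 1.65-fold and 1.53-fold lower, while Lpcat1 was 1.42-fold higher, with other probe sets down to -0.32. Csf2ra, counted as lower at -0.24, differed by 1.47 on its other probe set (named after its value was seen). Of 8 alveolar type 1 genes, 5 were higher and 3 lower (median 0.32). Ager, the receptor RAGE, was 3.56-fold higher, from a signal of 26.0 that only just reached the floor to 92.7. The water channel Aqp5 was 1.69-fold higher (111 and 188). Emp2, with brighter signals (1143 and 750), was 1.52-fold lower (named after its value was seen).

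Around the secretoglobins, the club cell genes measured were, by their median, nearly level between the pools. Of 6, 2 were higher and 4 lower, none by 2-fold, and the median was -0.05. Cyp2f2, a cytochrome P450 of club cells, read 3866 and 3306, the carbonyl reductase gene Cbr2 2451 and 2791, and Cldn10, a claudin, 431 and 266. Other secretoglobins with a probe set of their own, which are known from glands rather than airway, went both ways: Scgb1b27 was 1.42-fold higher and Scgb2b27 1.83-fold lower, and Scgb1b2 was under the floor on both arrays (19.6 and 17.1). In the list of airway mucous and serous products, 4 of 11 genes were at least 2-fold higher and none lower by that much, with a median of -0.14, and the other 7 were lower by less, down to -0.77 for Muc5ac (named after its value was seen). The 4 were Pigr, which carries IgA across epithelia (316 and 1735, 5.50-fold), Dmbt1, a mucosal scavenger protein (3.59-fold), lactoferrin (Ltf, 2.72-fold) and Bpifa1, a secreted protein of the upper airway (2.32-fold). Pigr, Dmbt1 and Ltf are also products of gut or gland epithelium. Scgb3a2 and Scgb1a1 were thus lower in the EiPS tumours by more than the median of the other club cell genes. Cldn10 among them, at -0.69 on the log2 scale, was close to Scgb1a1 at -0.78. Of those 11 airway products 7 were lower, beside 4794 of all 10953 measured genes. Among the 7, Agr2 (named after its value was seen) differed by -0.09 on the log2 scale, and its other probe set by 1.08.

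The regulator most closely tied to these genes was not measurable. Nkx2-1, with 1 probe set, read 1.39 in the ES tumours and 3.04 in the EiPS tumours, under the floor in both, while Sftpc, Sftpb and Sftpd, known targets of the factor or genes of the same cells, had signals over it. No detection call was used here, and a single probe set under the floor gives no level. Foxa2 was 1.77-fold higher (118 and 210) and Foxa1 1.15-fold lower (604 and 527). Of 16 measured transcription factors of lung epithelium, 10 were higher and 6 lower (median 0.26), and by the brightest probe set of each only Cebpd, a CCAAT-binding factor, passed 2-fold, at 3.38-fold higher, while its other probe set differed by -0.19 on the log2 scale. Less bright probe sets of Nfib, Foxp1 and Klf5 differed by up to 3.37, 1.96 and 1.82 (named after their values were seen). Of 10 genes of lung mesenchyme and inductive signals, 4 were under the floor on both arrays: Tbx5 (5.43 and 6.83), Wnt2 (2.70 and 17.0), Fgf10 (22.9 and 14.6) and Shh (7.26 and 19.1). The other 6 had a median of -0.07, with Wnt2b at least 1.32-fold and Tbx4 at least 1.24-fold lower and Fgfr2 1.22-fold higher by its brighter probe set and -0.22 on the log2 scale by its other.

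Lists of other cell types and organs had medians from 1.68 (stomach) to -0.51 (neuroendocrine). Their part in the result was not tested. For the counts below, 6159 of all 10953 measured genes were higher in the EiPS tumours, and 5.79% were higher by 2-fold or more. All 7 measured stomach genes were higher in the EiPS tumours, 6 by at least 2-fold (median 1.68): Gkn1 and Gkn2 at 12.02-fold and 11.4-fold, Atp4b at least 4.95-fold, Tff1 3.20-fold, Atp4a 2.63-fold and Tff2 2.16-fold. Of the stomach list Atp4b alone was under the floor in 1 pool, and no measured member was under it in both. Genes of simple epithelium were higher in 8 of 9 cases, none by 2-fold (median 0.44), led by Krt7 (1.81-fold), Cldn7 (1.62-fold) and Cldn3 (1.50-fold). In the alveolar macrophage list, the defining markers Marco (2.10 and 4.02) and Siglecf (11.7 and 12.1) were under the floor on both arrays. Itgax and Cd68, shared with other myeloid cells, were 2.28-fold and 2.09-fold higher (median 1.06 over 3 genes). Pparg, the other gene measured (named after its value was seen), was at least 1.85-fold higher (13.6, under the floor, and 48.1). The thyroid list, included because that organ also uses NKX2-1, had a median of 0.55 over 6 genes at low signals, with Pax8 at least 2.15-fold higher and the iodide transporter Slc5a5 2.05-fold lower. In the airway basal list 4 genes were higher and 2 lower (median 0.18), and none of the 6 reached 2-fold by its brightest probe set. Ngfr, Krt5 and Krt14 were 1.54-fold, 1.45-fold and 1.27-fold higher. Trp63 (named after its value was seen) was 1.27-fold lower, and its other measured probe set differed by -1.17 on the log2 scale. The 4 ciliated cell genes were all within 1.31-fold (median 0.22), with Rfx3, Dnah5 and Tekt1 1.31-fold, 1.27-fold and 1.07-fold higher. The 2 neuroendocrine genes Chga and Syp were 1.59-fold and 1.27-fold lower (median -0.51), though the 2 probe sets of Syp differed in sign (-0.35 and 0.10). The other collectins measured were Mbl2, at least 1.59-fold higher, and Colec12, 1.05-fold higher (median 0.37).

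**Figure D3:**
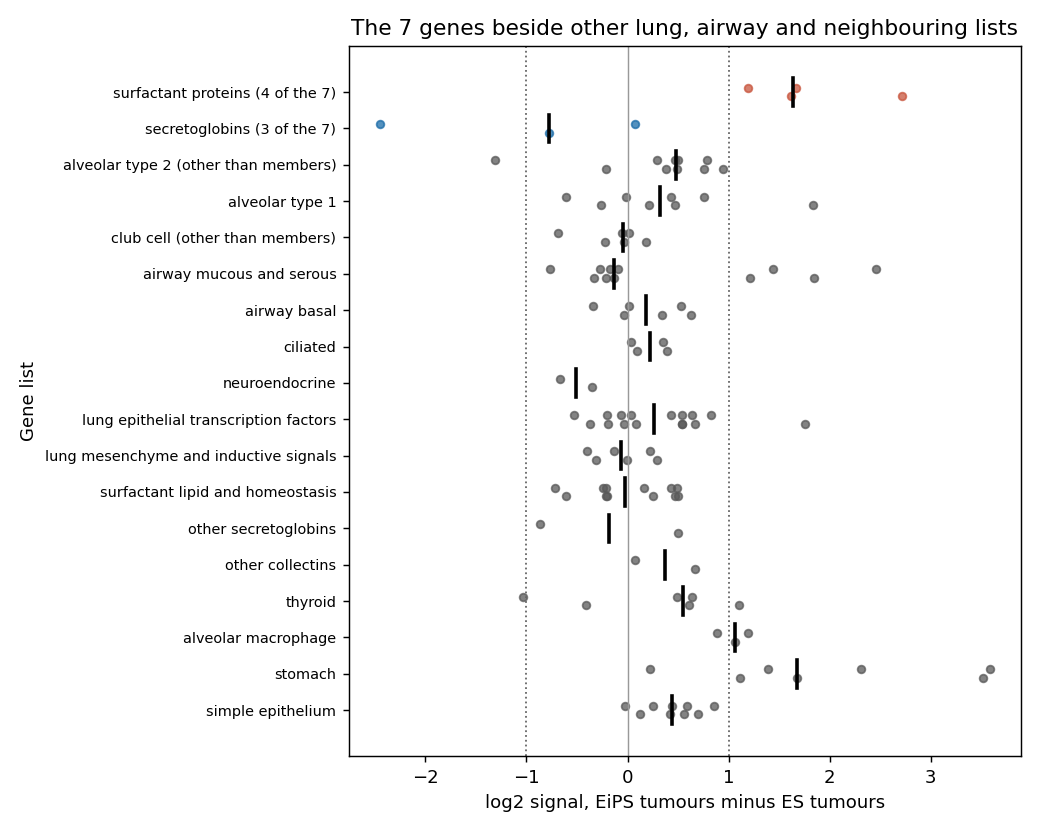
Each point is the log2 difference (EiPS tumours minus ES tumours) of 1 measured gene, black bars are list medians, and dotted lines are at 2-fold; genes with no measured signal on either array are left out. The 4 surfactant genes all lie above 1 with a median of 1.64, while the other alveolar type 2 genes have a median of 0.48 and the club cell genes of -0.05.

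The deposited scaling put both arrays at the same 2% trimmed mean, 500.2, while the median signal was 179 in the ES tumours and 196 in the EiPS tumours. Scaling to equal medians therefore moved the median difference of all genes from 0.07 to -0.06. Of all genes at least 2-fold different, 65.5% were higher in the EiPS tumours with the deposited scaling and 52.9% after quantile normalization (485 higher and 432 lower). The counts of the 7 genes, 4 higher and 1 lower, were the same under the deposited scaling, quantile normalization, equal medians and loess.

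**Figure D4:**
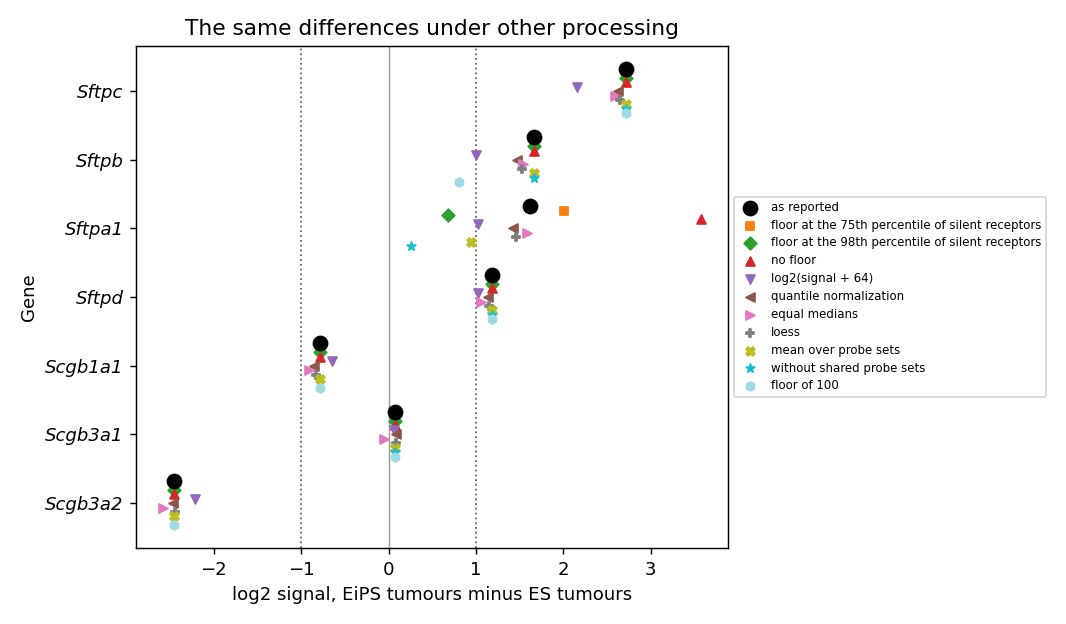
Log2 difference (EiPS tumours minus ES tumours) of each of the 7 genes as reported (large black circle) and under up to 10 alternatives (smaller symbols), with dotted lines at 2-fold. Sftpa1 spreads from 0.26 to 3.57, whereas Sftpd stays between 1.02 and 1.19 and Scgb3a2 between -2.58 and -2.21.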

How the data were processed

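The authors deposited 1 linear intensity value per probe set and array. Affymetrix Expression Console and MAS5 are the tools named in the submitters' processing notes, with versions not given in the sources used here. Of 22690 probe sets, 20380 had 1 gene symbol (20351 updated by Entrez identifier to RefSeq names), 691 several and 1555 none, and 64 were controls. Each gene was represented by the probe set brightest on average over both arrays (log2). The floor, 26.0, is the 90th percentile over both arrays of 69 probe sets for olfactory, vomeronasal, taste and trace amine receptors, held to be silent. A gene under it on 1 array was set to it there, and its difference is a bound ("at least"); 1440 genes under it on both were not compared. Mismatch subtraction in MAS5 adds noise at low signal. A gene counts as different at 2-fold. The number of arrays, 1 per group, limits precision and no p-value was computed. Reference lists were 16. Genes named are the 7 genes, all list genes at 2-fold, otherwise the 3 largest per list, 9 preset markers, and the 3 nearest genes. The 7 genes and the lists were chosen with earlier results of these data known. The calculation (Python 3.11.15, pandas 2.3.3, statsmodels 0.14.6) was tested on simulated data. Alternatives were other floors, log2(signal + 64), quantile, median and loess (span 0.4) scaling, and other choices of probe set.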

Additional observations from a re-analysis of the deposited data

How the results depend on the processing

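No paired analysis was possible because each group is 1 array. Each result was recomputed under up to 10 alternatives, and a value is said to have moved if it changed by more than the SD between probe sets of a gene (0.40); none of those at 2-fold reversed. Sftpa1, at 1.61, moved to 0.68 with a floor of 49.4 (98th percentile of the silent receptors), 3.57 without any floor, 1.02 with log2(signal + 64), 0.94 as the mean over its probe sets and 0.26 without shared probe sets, and was not measured with a floor of 100. Sftpb moved to 0.81 with a floor of 100 and to 1.01 with log2(signal + 64), and Sftpc to 2.15 with log2(signal + 64). The floor of 100 left 2 genes at least 2-fold higher instead of 4, and leaving out shared probe sets, which removes Scgb1a1 and Scgb3a2, left 0 lower instead of 1. The median over the 7 genes, 1.19, was 0.68 with that floor of 49.4 and 0.44 with a floor of 100. Of the lists, the airway mucous and serous median turned to 0.56 with a floor of 100, the thyroid median to -0.20 with the floor of 49.4 and -0.41 with a floor of 100, which leaves 1 gene, and the alveolar macrophage and stomach medians fell to 0.53 and 1.22 with log2(signal + 64). Small medians changed sign under some alternatives, from -0.21 to 0.16 for surfactant lipid genes and from -0.26 to 0.22 for lung mesenchyme. A higher floor by construction lowers a bound such as that of Sftpa1 or Sftpb and can leave fewer genes measured; the cause of the other changes was not tested. Genes at least 2-fold higher and lower numbered 634 and 334 of all measured genes, 305 and 244 with a floor of 100, 1249 and 720 with no floor, and 246 and 187 with log2(signal + 64). Of the 7 genes, Sftpa1 alone was under the floor in the ES tumours, so signal over background limits it to a bound.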
